A study of Mus musculus with 6 samples.

Results

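The clustered histone genes were read by 57 probes under 49 gene names, of 55681 non-control probes under 34821 gene names on an Agilent whole mouse genome array. A probe was a member if its deposited gene name began with Hist1h, Hist2h, Hist3h or Hist4h, the older names of the histone gene clusters, and its type was read from the same name. There were 6 probes of H1, 16 of H2a, 13 of H2b, 8 of H3 and 14 of H4. By their accessions 46 of the 49 names had a current RefSeq symbol, such as H3c4 for Hist1h3d and H2bc8 for Hist1h2bg. No measured value was used to choose a member.

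Histones H2A, H2B, H3 and H4 form the protein core around which DNA is wound, and the linker histone H1 binds the DNA that enters and leaves it. The clustered genes are transcribed mainly in S phase, when a dividing cell has to pack newly copied DNA, and most of their mRNAs end in a conserved stem-loop bound by Slbp instead of a poly(A) tail. Some members also give longer, polyadenylated transcripts. Erythroblasts divide quickly before their nucleus condenses and is expelled, so replicating cells make up much of an early erythroblast population.

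Bone marrow (BM) erythroblasts were sorted as CD71highTer119+ cells from 3 P38α+/- and 3 P38α-/- littermates of the C57Bl/6 strain on day 4 after 1 injection of phenylhydrazine (PHZ, 100 mg per kg), an agent that lyses red cells. All 6 mice had received 3 injections of PolyIC (300 µg each) at 6 to 8 weeks of age to switch on Mx1-Cre and had then rested for 6 weeks, so the P38α+/- controls also carried Cre, PolyIC and 1 deleted copy of the gene. Mx1-Cre answers to interferon and acts in many cell types, not in erythroid cells alone. A linear T7-based reaction amplified 10 ng of each mouse's RNA, whose Cy3-labelled product went onto 1 array per mouse, and the comparison asks which transcripts differ in erythroblasts without P38α during recovery from anemia.

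Of the 57 probes, 8 carried all or part of the histone stem-loop in their own letters, which shows what these probes can bind. The stem-loop was searched for as a stem of 6 bases that begins with GG, a loop of 4 bases that begins with T, and the reverse complement of the stem. All 16 letters were found in 6 histone probes, 10.5% of the members, and in 16 of all 55681 probes, 0.0287%. The windows of at most 30 bases below run 5′ to 3′, with the letters of the stem-loop in capitals.
Hist1h3a: aattaaccaaaGGCTCTTTTCAGAGCCaca
Hist1h3i: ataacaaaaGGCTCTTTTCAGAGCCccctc
Hist1h3g: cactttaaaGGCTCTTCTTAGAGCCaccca
Hist2h2bb: acccaaaaGGCTCTTTTCAGAGCCacttta
Hist1h4m: caactaaaGGCCCTTTTCAGGGCCatccaa
Hist2h2aa2: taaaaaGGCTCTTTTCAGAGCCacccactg
Hist1h2ab: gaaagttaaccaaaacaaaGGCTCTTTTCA
Hist1h2ae: CTTTTCAGAGCCattcacttaattcagtaa
The stem and loop letters were the same in Hist1h3a, Hist1h3i, Hist2h2bb and Hist2h2aa2, whereas Hist1h3g had other letters in the loop and Hist1h4m in the stem. In Hist1h3a, Hist1h3i, Hist1h3g, Hist2h2bb and Hist1h4m the probe stopped 3 to 6 bases after the stem-loop, close to where a replication-dependent histone mRNA is normally cut. The Hist2h2aa2 probe went on for 38 further bases and the Hist1h2ae probe, which holds only the last 12 letters, for 48. The Hist1h2ab probe ended on the first 11 letters.

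Another set of probes lay at the end of the H2a coding region, and their letters show how far they can tell family members apart. In this set 6 H2a probes ended exactly on a stop codon and shared at least 20 bases in a row with probes of 3 to 6 other histone genes. They are printed whole, with bases that differ from the Hist1h2af probe in capitals after alignment without gaps. The Hist2h2ac probe lacks the letters cat that follow gagagccac in Hist1h2af. Its run of capitals reflects this shift and overstates how far the 2 probes differ.
Hist1h2af: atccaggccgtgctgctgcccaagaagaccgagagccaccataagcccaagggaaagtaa
Hist1h2ah: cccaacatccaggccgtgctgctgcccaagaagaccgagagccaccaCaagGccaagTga
Hist1h2ak: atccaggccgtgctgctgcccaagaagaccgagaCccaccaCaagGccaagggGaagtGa
Hist1h2an: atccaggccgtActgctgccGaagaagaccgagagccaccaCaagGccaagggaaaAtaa
Hist2h2aa2: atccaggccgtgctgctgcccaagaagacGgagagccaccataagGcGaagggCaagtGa
Hist2h2ac: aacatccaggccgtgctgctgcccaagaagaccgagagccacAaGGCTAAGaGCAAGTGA
The Hist1h2ak, Hist1h2an and Hist2h2aa2 probes each matched Hist1h2af at 55 of 60 bases, although Hist2h2aa2 lies on another chromosome (chr3:96043781-96043840, against chr13:23626113-23626172 for Hist1h2af, both mm9 positions of the probe). These probes may take up cRNA of one another's genes, so their signals are given as those of a family and not of single genes. In all, 16 of the 57 histone probes shared a run of 20 bases with a probe of another histone gene, and a probe of H2afj, a histone gene outside the clusters, shared one with 5 of these 6.

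Of all probes, 28.9% to 53.1% were well above background on an array, and P38α+/- replicate 1 had the largest share. A value below is a log2 signal scaled by subtracting, on each array, the 75th percentile of the 15540 probes that every array detected well above background. The 18785 probes detected in this sense on all 3 arrays of at least 1 genotype were tested, and a probe was called if limma gave an adjusted p of at most 0.05 and a fold of at least 2. The median fitted difference over all tested probes was -0.16, and it was 0.32 when arrays were scaled on all probes. Histone differences are therefore also set against this median. The 2 probes of Mapk14, which encodes P38α, were not lower in the arrays labelled P38α-/- (fitted differences of 0.54 and 0.01, adjusted p = 0.186 and 0.991), so these probes do not check the labels. P38α-/- replicate 3 was the only array of the second slide, and the slide cannot be told apart from that mouse.

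Clustered histone transcripts were readily detected in these erythroblasts. Whether the signals come from stem-loop or from polyadenylated transcripts, and how evenly the amplification copied both, was not tested. Of the 57 probes, 50 were well above background on all 6 arrays, 87.7% against 27.9% of all probes on the array. Between 50 and 54 histone probes were well above background on any 1 array. Of each type, 5 of 6 H1 probes, 14 of 16 H2a probes, 11 of 13 H2b probes, 7 of 8 H3 probes and 13 of 14 H4 probes were detected on every array. Detection went with where the probe lay in the transcript, by the start that the array file gives. It held on all arrays for 37 of 38 probes that start within 500 bases and for 13 of 19 that start further in, a boundary chosen after the values had been seen.

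In all, 6 members were not tested, and 5 of them started 500 bases or more into the transcript. The probe of the pseudogene Hist1h2al and the far probe of Hist4h4, which starts at base 1788, were well above background on no array. Hist2h3c2, an H3 gene, read -5.66, -5.11 and -4.86 in P38α+/- and -6.13, -6.80 and -6.51 in P38α-/-. It was well above background on 2 P38α+/- arrays and on no P38α-/- array. Each P38α-/- value below the dimmest signal still well above background on its array was raised to that signal. Set against the mean of all 3 P38α+/- arrays as measured, Hist2h3c2 was then 2.34-fold lower in P38α-/-. In the same way Hist1h2bq, well above background on 2 P38α+/- arrays, was 1.73-fold lower. These folds are no strict bounds. On P38α+/- replicate 1 the Hist2h3c2 probe read above that array's dimmest such signal (-6.02) and was still not well above background. Hist1h1d and Hist1h2ae were each well above background on 1 P38α+/- array and on no P38α-/- array, so no fold is given for them. Hist1h1d read -5.00, -6.45 and -6.30 against -7.35, -8.52 and -7.60, and Hist1h2ae read -5.65, -5.77 and -6.53 against -5.92, -7.39 and -7.59.

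Between the genotypes, no histone probe was called, but most of them lay below the median probe. Of 51 tested probes 0 were called, against 28 of all 18785 tested probes (0.149%), and the smallest adjusted p was 0.106 for Hist1h3a (limma with Benjamini-Hochberg adjustment). At an unadjusted p of at most 0.05, 19 histone probes passed, 37.3% of them, against 20.9% of all tested probes, and all 19 were lower in P38α-/-. The median fitted difference of the histone probes was -0.41, or -0.25 relative to the median probe, and 41 of the 51 lay below it. In 21 probes, 41.2%, every P38α-/- array read below every P38α+/- array, as did 20.8% of all tested probes, and in 0 probes every P38α-/- array read above, as did 6.93% of all. Counted as 44 genes by their brightest tested probe, the median was again -0.41 and 0 were called. With the arrays scaled on all probes the histone median was 0.07 and 30 of the 51 probes lay above 0, while 41 of 51 still lay below the median probe of that fit. The medians of H1, H2a, H2b, H3 and H4 were then -0.051, 0.34, 0.043, -0.11 and 0.12, so the signs of H2a, H2b and H4 turned.

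**Figure D1:**
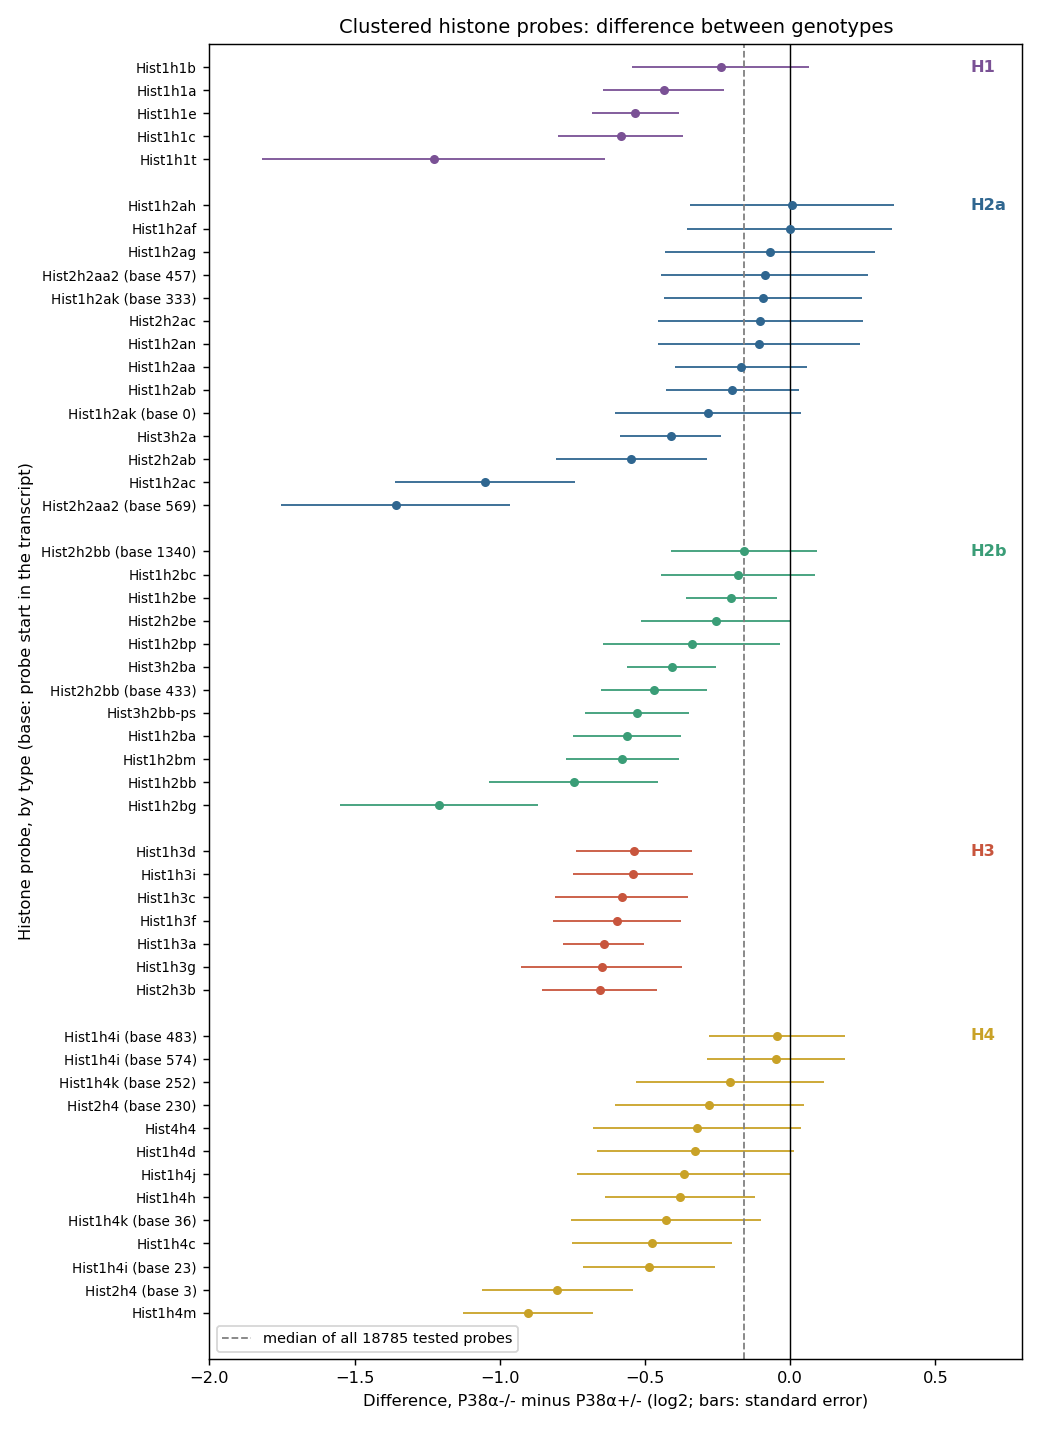
Fitted difference between genotypes (P38α-/- minus P38α+/-, log2, x axis) with its standard error for each of the 51 tested histone probes (y axis), grouped by type. All 7 H3 probes lie between -0.66 and -0.54, whereas the H2a probes spread from -1.36 to 0.01, and the dashed line marks the median of all tested probes (-0.16).

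The H3 genes, which encode the core histone that carries many of the known chromatin marks, lay closest together. All 7 tested probes were lower in P38α-/-, by 0.54 to 0.66 on the log2 scale, or 1.45 to 1.58-fold, and their median was -0.44 relative to the median probe. In 6 of the 7 (85.7%, against 20.8% of all tested probes) every P38α-/- array read below every P38α+/- array, and 6 passed an unadjusted p of 0.05 (against 20.9% of all), but none was called. Where the genotypes do not overlap, the P38α-/- mouse is lower in any pairing of mice. Hist1h3g, the only one of the 7 with overlap, was also lower in P38α-/- within all 3 pairs of mice with the same replicate number.

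Hist1h3a read -0.49, -0.69 and -0.53 in P38α+/- and -1.18, -1.22 and -1.24 in P38α-/-. The P38α-/- values lay close together and all below the lowest P38α+/- value, for a fitted difference of -0.64 (standard error 0.14, adjusted p = 0.106). Hist2h3b, from the cluster on chromosome 3 (chr3:96072881-96072940, mm9), read 5.63, 5.01 and 5.17 against 4.66, 4.62 and 4.58. Its genotypes did not overlap either, with a difference of -0.66 (standard error 0.20, adjusted p = 0.155). Hist1h3d read 6.99, 6.39 and 6.49 against 6.19, 6.05 and 6.02, with a difference of -0.54 (standard error 0.20, adjusted p = 0.205). The values of Hist1h3i were 2.49, 1.96 and 2.06 in P38α+/- and 1.66, 1.40 and 1.83 in P38α-/-, again without overlap. Hist1h3c and Hist1h3f had differences of -0.58 and -0.60, and their probes share 20 bases or more with probes of 1 other histone gene, as those of Hist1h3a and Hist1h3i do with 2 each. Only in Hist1h3g did the genotypes overlap, where P38α-/- replicate 1 read -0.01 and P38α+/- replicate 3 read -0.19. In 4 of the 7 H3 probes replicate 1 was the highest array of both genotypes.

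**Figure D2:**
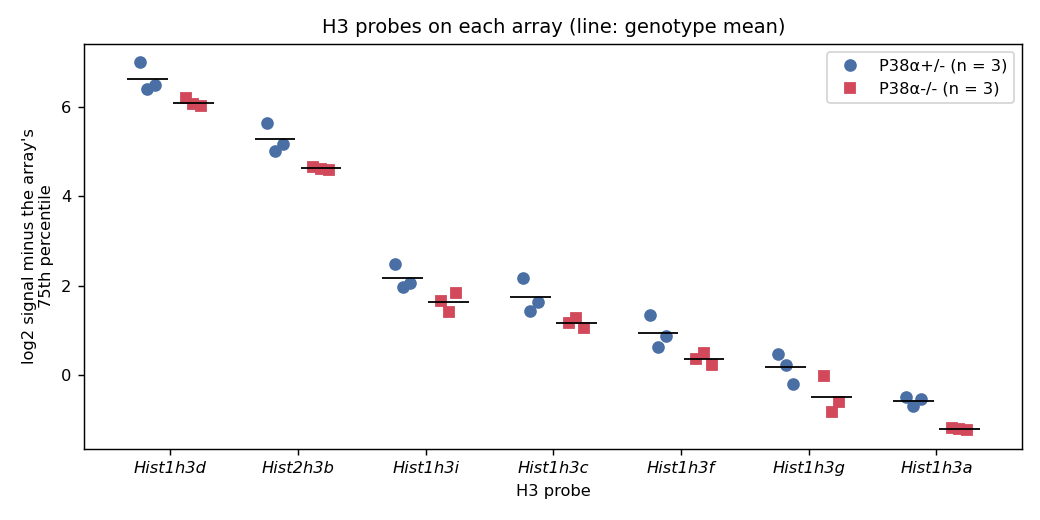
Log2 signal relative to the array's 75th percentile (y axis) of the 7 tested H3 probes (x axis) on each array, P38α+/- as circles and P38α-/- as squares, with a line at each genotype mean (n = 3 each). In Hist1h3g the genotypes overlap, and in the other 6 probes every square lies below every circle.

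The H2b genes were also low as a group, with 1 probe further down. The median of 12 tested probes was -0.44, or -0.28 relative to the median probe, 7 passed an unadjusted p of 0.05 (58.3%, against 20.9% of all tested probes), and in 7 every P38α-/- array read below every P38α+/- array (against 20.8% of all). Hist1h2bm read 5.33, 4.82 and 5.20 in P38α+/- and 4.35, 4.63 and 4.64 in P38α-/-, a difference of -0.58 (standard error 0.19, adjusted p = 0.177). Hist1h2ba, whose protein is known as the testis-specific H2B, read 5.33, 4.76 and 5.07 against 4.48, 4.43 and 4.57, a difference of -0.56. In both genes all P38α-/- arrays were below all P38α+/- arrays.

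The largest difference among H2b probes was that of Hist1h2bg (chr13:23663823-23663882, mm9), which read -2.64, -2.43 and -3.09 in P38α+/- and -3.35, -3.89 and -4.55 in P38α-/-. The genotypes did not overlap, and the fitted difference of -1.21 is 2.31-fold (standard error 0.34, 95% interval from -2.03 to -0.39, adjusted p = 0.145). The probe starts at base 554 of the transcript, past the coding region of a short histone mRNA. Hist2h2bb was read by 2 probes, with differences of -0.47 for the one that holds the stem-loop (4.27 ± 0.19 against 3.80 ± 0.20, SD, n = 3 each) and -0.16 for the one that starts at base 1340. The first did not overlap between genotypes and the second did.

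The H2a probes at the stop codon, in contrast, stood near the median probe or above it, although with quantile normalization Hist1h2af, Hist1h2ah, Hist1h2ak and Hist2h2aa2 lay from -0.089 to -0.054 relative to it. Their 6 fitted differences ran from -0.11 to 0.01, and from 0.05 to 0.17 relative to the median probe, and in all 6 the genotypes overlapped. Hist1h2ah read 8.92, 8.26 and 8.02 in P38α+/- and 9.03, 8.04 and 8.15 in P38α-/-, and Hist1h2af read 8.72, 7.99 and 7.78 against 8.76, 7.84 and 7.88. On these probes replicate 1 was the highest array of both genotypes, by about the same step in each. In the unpaired fit the interval of Hist1h2af ran from -0.85 to 0.85. Within pairs of the same replicate number Hist1h2af differed by 0.04, -0.15 and 0.11 and Hist1h2ah by 0.11, -0.22 and 0.13, in both directions. The same order, replicate 1 highest in both genotypes, was seen in 62.3% of the 252 other tested probes with a mean log2 signal of at least 5 and in 28.4% of the tested probes under 5. Relative to each probe's mean over the 6 arrays, the medians of these 252 probes were 0.13, -0.02 and -0.07 against 0.11, -0.07 and -0.11. Over all tested probes they were 0.18, 0.02 and -0.01 in P38α+/- against -0.08, -0.08 and -0.08 in P38α-/-. A place above the median probe may therefore be shared by other bright probes.

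For another 2 H2a probes the genotypes were further apart. The Hist2h2aa2 probe that runs past the stem-loop read -1.68, -1.44 and -2.58 in P38α+/- and -2.67, -3.38 and -3.74 in P38α-/-. The genotypes did not overlap, with a difference of -1.36, or 2.56-fold (standard error 0.39, 95% interval from -2.31 to -0.41, adjusted p = 0.150). Hist1h2ac, with a probe at base 2426 and so far behind the coding region, read -3.30, -2.62 and -3.29 against -3.64, -4.14 and -4.59, a difference of -1.05 (standard error 0.31, adjusted p = 0.152); it is named here after its values were seen. Hist3h2a also did not overlap between genotypes, with a difference of -0.41, and Hist2h2ab overlapped with a difference of -0.55. Of all 14 tested H2a probes, 3 had every P38α-/- array below every P38α+/- array (21.4%, against 20.8% of all tested probes). At an unadjusted p of 0.05 in limma 2 passed (14.3%, against 20.9% of all). The median over the 14 was -0.14, or 0.02 relative to the median probe, with 7 probes on each side of it. Without P38α+/- replicate 1 this relative median was 0.22, and without P38α-/- replicate 1 it was -0.24.

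**Figure D3:**
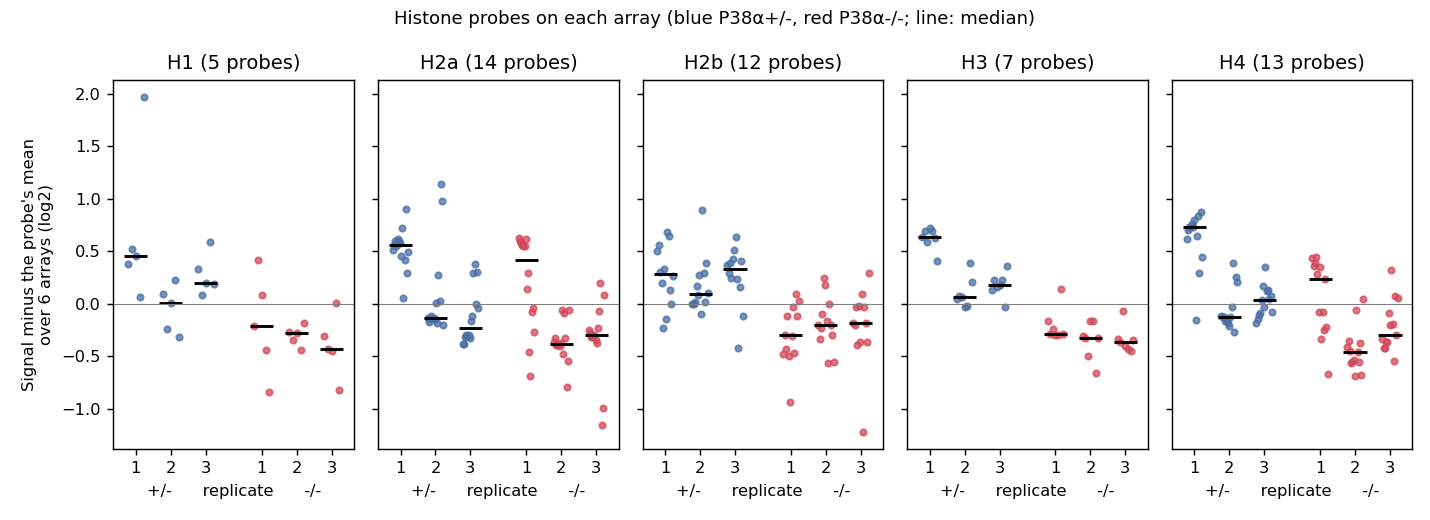
Signal of each tested histone probe on each array minus that probe's mean over the 6 arrays (log2, y axis), for P38α+/- replicates 1 to 3 (blue) and P38α-/- replicates 1 to 3 (red) by type, with a line at the median of the probes. The H3 medians are 0.63, 0.06 and 0.18 in P38α+/- and -0.29, -0.32 and -0.37 in P38α-/-, whereas the H2a medians are high in replicate 1 of both genotypes (0.56 and 0.42).

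The linker histone H1 genes had a median difference of -0.53 over 5 tested probes, or -0.37 relative to the median probe (-0.22 without P38α+/- replicate 3), and all 5 lay below it. Hist1h1e (H1.4), with a probe that ends on a stop codon, read 6.18, 5.89 and 6.13 in P38α+/- and 5.59, 5.52 and 5.49 in P38α-/-. The genotypes did not overlap, with a difference of -0.53 (standard error 0.15, adjusted p = 0.146). Hist1h1c (H1.2), read at base 1342, had 0.15, 0.32 and 0.67 against -0.36, -0.35 and 0.10, again without overlap, and a difference of -0.58 (adjusted p = 0.203). Hist1h1a and Hist1h1b overlapped between genotypes, with differences of -0.43 and -0.24. Hist1h1t, the testis-specific H1, had the largest difference of the type, -1.23 (standard error 0.59, adjusted p = 0.290), which came from P38α+/- replicate 1. That array read -1.62 and the other P38α+/- arrays -3.91 and -3.41, close to the -4.43, -3.78 and -4.41 of P38α-/-.

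The H4 genes had a median difference of -0.37 over 13 tested probes, or -0.21 relative to the median probe, and in 3 of the 13 (23.1%) every P38α-/- array read below every P38α+/- array, a share near the 20.8% of all tested probes. At an unadjusted p of 0.05 the H4 share was 15.4%, below the 20.9% of all. The H4 median relative to the median probe was -0.019 without P38α+/- replicate 1 and -0.017 without P38α-/- replicate 2. Hist1h4m, read across its stem-loop, was the lowest of them with 1.65, 1.20 and 0.94 in P38α+/- and 0.57, 0.25 and 0.27 in P38α-/-. No P38α-/- array reached the lowest P38α+/- array, and the difference of -0.90 is 1.87-fold (standard error 0.22, adjusted p = 0.123). Hist1h4d, inside its coding region, read 7.61, 6.76 and 6.78 against 7.27, 6.44 and 6.46, with a difference of -0.33 (standard error 0.34). Replicate 1 was the highest array of both genotypes in 11 of the 13 H4 probes, and the genotypes of Hist1h4d overlapped through it. Within pairs of the same replicate number the P38α-/- mouse read lower in 13, 12 and 11 of the 13 probes.

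Where 2 tested probes read the same gene, their difference on an array is free of any constant subtracted from that array. There were 8 such pairs in 6 genes, and in 3 of them the genotypes did not overlap. This share was not computed for probe pairs of other genes, so 3 of 8 has no baseline here. Among single tested probes, every P38α-/- array read below every P38α+/- array in 20.8% and above in 6.93%. The pairs of Hist1h4i share probes and are not independent of each other. For Hist2h2aa2 the probe at the stop codon exceeded the probe past the stem-loop by 10.24, 9.25 and 10.22 on the P38α+/- arrays and by 11.20, 10.94 and 11.38 on the P38α-/- arrays. The gap between these probes was thus wider by 1.27 in P38α-/- (9.90 ± 0.57 against 11.17 ± 0.22, SD, n = 3 each, exact permutation p = 0.10, the smallest possible, 0.267 after adjustment over the 8 pairs). The stop codon probe shares 20 bases or more with probes of 4 other histone genes and the probe past the stem-loop with probes of 3, so neither may be read as this gene alone.

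For Hist2h4 the probe at base 3, around the start codon, minus the probe at base 230 was -9.08 ± 0.11 in P38α+/- and -9.60 ± 0.36 in P38α-/- (exact permutation p = 0.10, adjusted 0.267). The array values of the first probe were -0.99, -1.61 and -1.79 against -2.08, -2.54 and -2.16, and those of the second 8.18, 7.35 and 7.33 against 7.84, 7.12 and 7.06. For Hist1h4i the probe at base 23 minus the probe at base 483 was 1.75 ± 0.14 in P38α+/- and 1.31 ± 0.12 in P38α-/- (exact permutation p = 0.10, adjusted 0.267). The probe at base 483 is unmapped in the array files and shares a run of 20 bases with a probe of Galns, a gene that is no histone, so it may not read Hist1h4i alone. Fitted alone, the Hist1h4i probes had differences of -0.49 at base 23, -0.05 at base 483 and -0.05 at base 574. In the remaining 5 pairs the genotypes overlapped, among them Hist1h4k, whose probes at bases 36 and 252 had fitted differences of -0.43 and -0.21. With 3 arrays a genotype no pair could pass the adjustment.

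**Figure D4:**
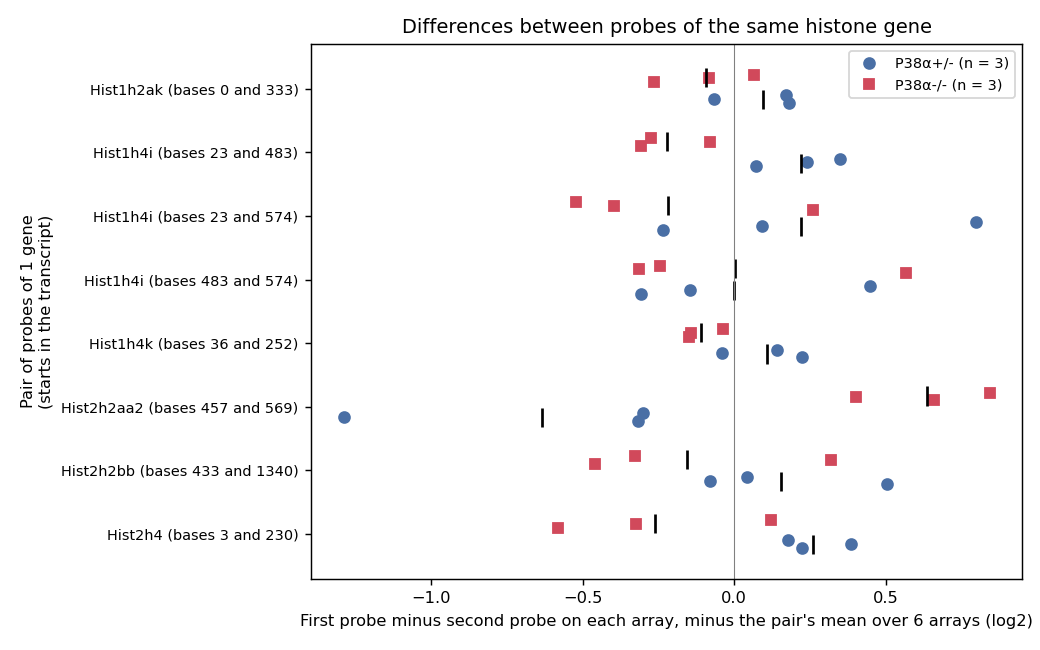
Difference between 2 probes of the same gene on each array, minus the pair's mean over the 6 arrays (log2, x axis), for 8 pairs (y axis), with P38α+/- as circles, P38α-/- as squares and a line at each genotype mean (n = 3 each). The circles and squares do not overlap for Hist2h2aa2, for Hist2h4 and for Hist1h4i at bases 23 and 483.

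Promoter letters are shown by type, and whether they relate to the differences between genotypes was not tested. RefSeq windows (GRCm38.p6) from 250 bases before to 50 after the start were found for 41 of the 46 current symbols. CCAAT stood on either strand in 35 of the 41, 85.4%, against 37.9% of all 27025 promoters of the table, and only 2 of 8 H4 windows held it while every H1, H2a, H2b and H3 window did. TATAAA stood in 25 of 41, 61.0%, against 14.2% of all promoters. The octamer ATTTGCAT stood in 12 of 41, 29.3%, against 1.75% of all promoters, namely in 7 of 13 H2a and 5 of 9 H2b windows and in 0 of the H1, H3 and H4 windows. The last 100 bases before the start are printed for Hist1h3d and Hist2h3b of the H3 type, for Hist1h2bm and Hist1h2bg of H2b, and for Hist1h4m, with these motifs in capitals on whichever strand they lie.
Hist1h3d (chr13:23575663-23575762, plus strand): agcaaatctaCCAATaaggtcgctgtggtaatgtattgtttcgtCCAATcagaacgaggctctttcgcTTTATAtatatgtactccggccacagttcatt
Hist2h3b (chr3:96268554-96268653, plus strand): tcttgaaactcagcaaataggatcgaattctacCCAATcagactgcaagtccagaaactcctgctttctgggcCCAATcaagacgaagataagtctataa
Hist1h2bm (chr13:21721944-21722043, plus strand): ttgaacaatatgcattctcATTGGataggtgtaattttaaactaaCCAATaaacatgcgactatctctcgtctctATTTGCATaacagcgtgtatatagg
Hist1h2bg (chr13:23571300-23571399, plus strand): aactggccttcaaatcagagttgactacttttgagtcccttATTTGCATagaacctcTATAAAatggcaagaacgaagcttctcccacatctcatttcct
Hist1h4m (chr13:21811646-21811745, plus strand): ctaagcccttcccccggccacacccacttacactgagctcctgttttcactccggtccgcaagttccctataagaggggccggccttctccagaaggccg
The 2 printed H3 windows hold CCAAT on the strand of the gene, the 2 printed H2b windows hold the octamer, and the printed Hist1h4m window holds none of the 3 motifs. They do not stand for all windows of their type. A match of letters is no evidence of a bound factor. Among the 41 members with a window, an H2a and an H2b member lay head to head in 3 places, with at most 500 bases between their starts. Members without a window may add others. The differences were -0.11 for Hist1h2an and -0.34 for Hist1h2bp, and -0.17 for Hist1h2aa and -0.56 for Hist1h2ba. The partner of Hist1h2bg (-1.21), 180 bases away, is Hist1h2ae, which was too dim to be tested.

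The lists of genes that make, process and carry histone mRNA and protein had medians above the median probe, with a few members well below it. Of 18 genes of histone mRNA production and processing, 17 were tested by their brightest tested probe, 0 were called, and the median difference was -0.01, or 0.15 above the median probe. Slbp, which binds the stem-loop, read 0.02, 0.40 and 1.03 in P38α+/- and -0.14, 0.84 and 0.72 in P38α-/-, and the genotypes overlapped (difference -0.01, standard error 0.36). Npat, the coactivator of histone gene transcription, was well above background on 1 array and was not tested. Casp8ap2, a component of the histone locus body, had a difference of -0.01, the zinc finger protein Hinfp, an activator of H4 genes, one of -0.16, and Eri1, an exonuclease that trims histone mRNA ends, one of -0.01. Lsm10 and Lsm11, of the U7 particle that directs cleavage after the stem-loop, had 0.36 and -0.14, and in Lsm10 every P38α-/- array read above every P38α+/- array. Zcchc11, a terminal uridylyltransferase, was the lowest of the list at -1.13 (standard error 0.19, adjusted p = 0.0799), with -1.98, -1.60 and -2.17 against -3.09, -2.92 and -3.12. Ncbp2, a subunit of the cap-binding complex, was next at -0.69 (standard error 0.22, adjusted p = 0.167), again with every P38α-/- array below every P38α+/- array. Both are named after their values were seen.

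Of 18 histone chaperones all were tested, 0 were called and the median difference was -0.03. Nasp, a carrier of H1 and H3-H4, had a difference of -0.29 (0.60, 0.68 and 0.88 against 0.28, 0.69 and 0.33), and the genotypes overlapped. Of 22 S phase replication genes 21 were tested, 0 were called, 0 passed an unadjusted p of 0.05, and the median difference was -0.06, or 0.10 above the median probe.

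Histone genes outside the clusters are mostly expressed independently of replication, although H2afx also gives a stem-loop mRNA. Of 11, 9 were tested, 0 were called and the median difference was -0.24, or -0.08 relative to the median probe. H3f3b, which encodes the replacement histone H3.3, read 3.47, 3.48 and 3.49 in P38α+/- and 3.12, 3.12 and 3.14 in P38α-/-, a step of -0.35 with no overlap (standard error 0.13, adjusted p = 0.205). H3f3a, the other H3.3 gene, overlapped between genotypes with a difference of -0.27. The lowest of the list was H2afy, the gene of macroH2A1, at -1.06 (standard error 0.34, adjusted p = 0.170), which overlapped between genotypes and is named after its values were seen. The variants H2afx, H2afz and Cenpa had differences of -0.24, 0.08 and 0.05, and H1f0, the linker histone of resting and differentiating cells, was well above background on no array.

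**Figure D5:**
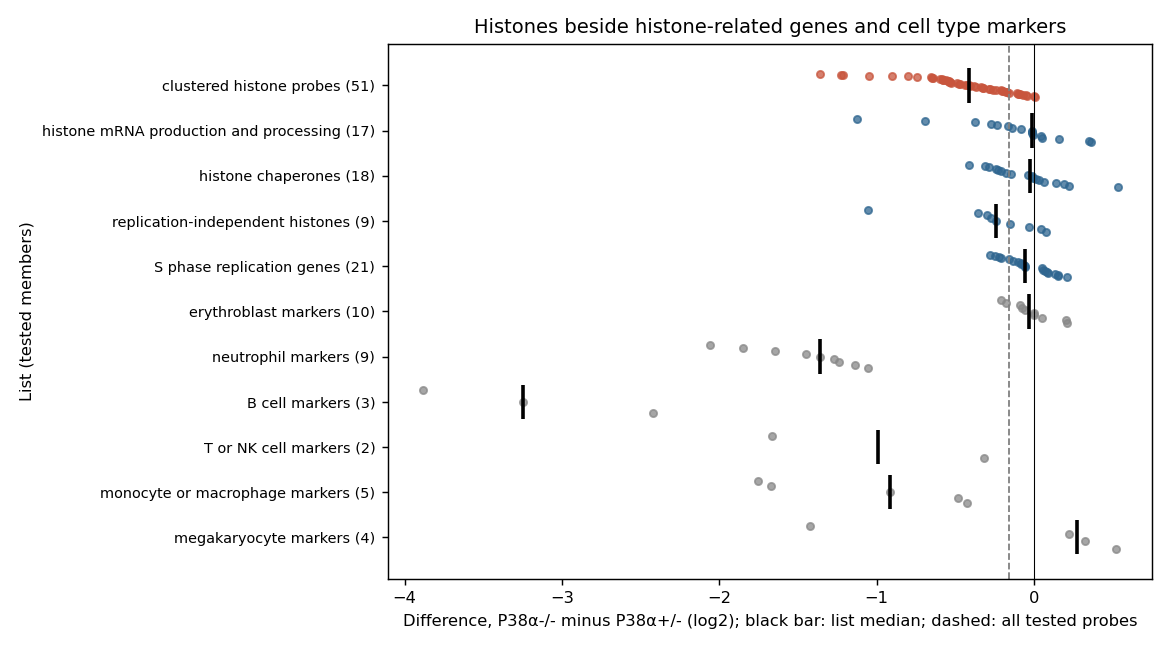
Fitted difference between genotypes (log2, x axis) of the tested histone probes (red), of histone-related and S phase genes (blue) and of cell type markers (grey) by list (y axis, number tested in brackets), with a bar at each median and a dashed line at the median of all tested probes. The histone median is -0.41, the S phase median is -0.06 and the neutrophil marker median is -1.36. Ebf1 and Ms4a1, the 2 lowest B cell markers, are drawn at their fitted differences although no P38α-/- array measured them.

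Markers of neutrophils were also lower in P38α-/-, as were the 3 tested B cell markers, 1 of them with overlap. Most megakaryocyte markers were not lower. Monocyte or macrophage markers and T or NK cell markers had medians below the median probe, but most of the former overlapped between genotypes. All 9 neutrophil markers were well above background on all 6 arrays and below the median probe, with differences from -2.06 to -1.05 and 8 at an unadjusted p of at most 0.05, but 0 called. Their mean log2 signal was 3.15, 4.02 and 2.36 on the P38α+/- arrays and 1.98, 1.80 and 1.39 on the P38α-/- arrays. Of 6 B cell markers 3 were tested. Cd79b differed by -2.42, but its genotypes overlapped (standard error 1.05, adjusted p = 0.254 in limma). Ebf1 and Ms4a1 were well above background on all P38α+/- arrays and on no P38α-/- array, so they were tested through the P38α+/- arrays alone. Computed as for Hist2h3c2, and again not as a strict bound, they were 4.16-fold and 3.51-fold lower. The mean signal of the 6 ran from -6.14 to -3.74 in P38α+/- and from -7.56 to -6.47 in P38α-/-. Of 6 monocyte or macrophage markers 5 were tested, with a median of -0.91. All 5 lay below the median probe, but only 1 (20%) passed an unadjusted p of 0.05 in limma, near the 20.9% of all tested probes. In 4 of the 5 the genotypes overlapped. Of 5 T or NK cell markers 2 were tested, Nkg7 at -1.67 without overlap and Cd3e at -0.32 with overlap. Of 5 megakaryocyte markers 4 were tested, with a median of 0.28, and Vwf, Gp9 and Itga2b stood at 0.52, 0.33 and 0.22 while Pf4 stood at -1.42. The 10 erythroblast markers, among them Tfrc and Klf1, were well above background on all arrays, with a median of -0.03 and mean signals of 4.13 to 4.38 and 4.16 to 4.41. Whether the lower signal of marker genes of other cells has a part in the histone differences was not tested, and in sorted bulk RNA fewer cells of a kind and less RNA per cell cannot be told apart.

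With limma's array quality weights 3 histone probes were called, against 10.1% of all tested probes, and these were Hist1h2ac (-1.58), Hist1h2bg (-1.74) and the Hist2h2aa2 probe past the stem-loop (-1.87), each lower in P38α-/- with adjusted p = 0.0212, 0.0212 and 0.0213. The same fit called Zcchc11 and H2afy, and its weights ran from 0.471 for P38α+/- replicate 1 to 3.94 for P38α-/- replicate 3. With the replicate number as a block, since same-numbered mice deviated together, 0 histone probes were called against 0.341% of all tested probes, and the smallest histone adjusted p was 0.0705 for Hist1h4m.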

How the data were processed

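RNA of sorted BM erythroblasts from 3 P38α+/- and 3 P38α-/- mice was read on 1 one-colour Agilent array per mouse. The authors deposited each spot's intensity as Agilent Feature Extraction 10.7.3.1 wrote it, with background subtracted and no normalization between arrays, and a table of normalized intensities whose steps are not given in the sources used here. Control spots and outlier spots were left out, spots of a probe were averaged, and log2 values of the deposited signals were centred per array on the 75th percentile of probes that all 6 arrays detected. No spot was saturated. Genotypes were compared with limma 3.58.1 in R 4.3.3 (lmFit and eBayes, two-sided, Benjamini-Hochberg adjustment over 18785 probes), unpaired as in the study's methods. On simulated data with 200 of 18780 probes changed it called 163 probes, 155 of them changed. A call needed a fold of at least 2, and these counts are not split by the size of the difference. Recovery of differences as small as the histone median of -0.41 (log2) was not tested. Recovery at folds not far above 2, such as 2.31 for Hist1h2bg and 2.56 for Hist2h2aa2 past the stem-loop, was not tested separately. Single values were tested by exact two-sided permutation. The 3 arrays a genotype limit the precision, and p-values measure the spread between mice. Probe positions are mm9 as in the array files, and promoters are RefSeq on GRCm38.p6.

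The members and lists were chosen with earlier results of these data known. Named were Mapk14, histone genes called, the 3 brightest genes of each type with the largest and smallest fitted difference, genes in sequence examples, and 14 list genes. Groups came from the sample labels, and 0 columns were left unassigned. Arrays with the same replicate number deviated from their genotype together (correlations of 0.393, 0.242 and 0.389, against at most 0.0609 for other numbers). The number was therefore used as a block in an alternative fit and to set same-numbered mice side by side. The main fit was unpaired, and any pairing by number is inferred from these same values. The series' design text speaks of pairs of mice but ties no number to them. Alternatives were other scalings (all probes, quantile, spike-in), normexp background with an offset of 50, no or a stricter filter, the authors' table, the replicate or slide as a block, array weights, the methods' t-test and each array left out.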

Additional observations from a re-analysis of the deposited data

How the results depend on the processing

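The 0 histone calls held under all alternatives run other than array weights (3 calls) and an unadjusted p with the fold (3), and genes of the histone-related and S phase lists were called with array weights only (2). The count of all probes called, 28, was 809 with arrays scaled on all probes, 15 with quantile normalization, 8 with spike-in centring, 13 with normexp, 0 without a filter, 70 with the stricter filter, 11 with the authors' table, 64 with the replicate block, 0 with the slide block, 1892 with array weights and 2 with the methods' t-test. Calls higher in P38α-/- were 21 of the 28, 470 with arrays scaled on all probes, 14 with quantile normalization, 2 with spike-in centring, 13 with normexp and 11 with the authors' table. The count of calls ran from 0 to 325 with 1 array left out, 325 without P38α+/- replicate 3 and 0 without any other. The cause was not tested. With the replicate block 0 histone probes and 0 genes of these lists were called, as in the main fit. Of its 64 calls over all probes, 17 were higher in P38α-/-. Scaling on all probes moved the histone median to 0.070 and those of H1, H2a, H2b, H3 and H4 to -0.051, 0.34, 0.043, -0.11 and 0.12. The H2b median was -0.30 with quantile normalization, spike-in centring and the authors' table, and -0.31 with normexp and array weights, or -0.18 with weights relative to the median probe. With the authors' table the H1 and H3 medians were -0.59 and -0.68 relative to the median probe. In that table P38α-/- replicate 2 had a rank correlation of 0.898 with its scanner values, against at least 0.9999 for the other arrays. With 1 array left out the histone median ran from -0.51 to -0.34, that of H1 from -0.62 to -0.45, of H2a from -0.39 to 0.10, of H2b from -0.47 to -0.41, of H3 from -0.70 to -0.44 and of H4 from -0.57 to -0.14, and 0 histone probes were called. Relative to the median probe these ranges were -0.36 to -0.22, -0.42 to -0.22, -0.24 to 0.22, -0.31 to -0.20, -0.51 to -0.32 and -0.42 to -0.02. Signs relative to the median probe turned where values were near 0: with quantile normalization and the authors' table for Hist1h2af (-0.057 and -0.062), Hist1h2ah (-0.057 and -0.062), Hist1h2ak at base 333 (-0.054 and -0.062), Hist2h2aa2 at base 457 (-0.089 and -0.091), and Hist1h4i at bases 574 (-0.12 and -0.072) and 483 (-0.11 and -0.051). With array weights they turned for Hist1h2ak (-0.045) and Hist2h2aa2 (-0.033), without a filter for Hist1h1b (0.030) and Hist1h4k at base 252 (0.061), and with the slide block for Hist1h1b (0.068), Hist1h4i at base 574 (-0.070), Hist1h4k (0.059), Hist2h2bb at base 1340 (-0.19) and Hist2h4 at base 230 (0.015). With 1 array left out the same probes ranged from -0.15 to 0.40 for Hist1h2af, -0.15 to 0.38 for Hist1h2ah, -0.24 to 0.28 and -0.35 to 0.13 for Hist1h2ak at bases 333 and 0, -0.25 to 0.31 for Hist2h2aa2, -0.070 to 0.34 and -0.022 to 0.30 for Hist1h4i at bases 574 and 483, -0.36 to 0.080 for Hist1h1b, -0.33 to 0.17 for Hist1h4k, -0.19 to 0.25 for Hist2h2bb, -0.38 to 0.12 for Hist2h4 and -0.45 to 0.075 for Hist1h4d. Signal over background limits what can be said of the 6 untested members.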

Other observations

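A further 2 probes are described in the array files as clustered histones but carry another gene name, and so are no members. The probe described as H4d of cluster 1 (chr13:23673749-23673808, mm9) read 8.51, 7.70 and 7.63 in P38α+/- and 8.37, 7.45 and 7.46 in P38α-/-, with a fitted difference of -0.19 (standard error 0.35, adjusted p = 0.804 in limma). The probe described as H2ap of cluster 1 (chr13:21902695-21902754, mm9) read 8.55, 7.78 and 7.57 against 8.52, 7.57 and 7.67, with a difference of -0.05 (standard error 0.36, adjusted p = 0.957 in limma). In both the genotypes overlapped and replicate 1 was the highest array of each genotype.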
